A study of Mus musculus with 6 samples.

Results

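The genes described here encode lysosomal hydrolases, lysosomal membrane proteins and the transcription factors Tfeb and Tfe3. They were taken from a fixed list of symbols, and all 42 had a row among the 16906 genes of the table. All 42 also passed the filter on low counts, which left 12892 genes for testing, and the lowest estimated count of any of them in any library was 81. RNA had been sequenced from bone-marrow-derived macrophages (BMDMs) of wild-type C57BL/6 mice, grown with macrophage colony-stimulating factor. In the first group, 3 libraries called stretched 1 to 3, the cells had received exosomes of epithelial cells stretched cyclically for 6 h. In the control group, 3 libraries called static 1 to 3, they had received exosomes of epithelial cells that were not stretched. Both groups got exosomes at 100 µg/ml for 12 h, so neither shows macrophages without exosomes. The sources used here do not give where the epithelial cells came from or the age and sex of the mice. The labels do not tie replicates to different mice or cultures. P-values therefore measure the spread between these libraries alone, and part of it may be technical.

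The lysosome is the acidic organelle in which a cell breaks down what it has taken up or enclosed by autophagy. Its lumen holds proteases (mainly cathepsins), glycosidases, sulfatases and lipid-degrading enzymes, most of which are tagged with mannose 6-phosphate in the Golgi. Its membrane carries glycosylated proteins such as LAMP1 and LAMP2, ion channels and a proton pump. TFEB and TFE3 are related transcription factors that bind an E-box known as the CLEAR element in promoters of lysosomal genes and are controlled largely through their phosphorylation and nuclear entry. Macrophages take up particles and dead cells and are rich in these enzymes.

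The promoters carry that E-box unevenly, and the sequences of the called genes that hold it are shown first because the values of the hydrolases are later set beside it. The letters GTCACGTG were searched on both strands in RefSeq windows of GRCm38.p6 that run from 250 bases before each gene's start to 50 after it. A window was at hand for 38 of the 42 genes (44 windows), the exceptions being Asah1, Ctsb, Ctsh and Npc1. The letters were present for 10 of these 38 genes (26.3%), against 2.55% of all 27025 genes with a window. The shorter core CACGTG, which every such match also contains, was present for 13 of the 38 (34.2%), against 8.09% of all genes. Below are the 250 bases before the start of Gla, Naglu and Mcoln1, all higher in stretched libraries, with CACGTG in capitals.
Gla (chrX:134601006-134601255, minus strand): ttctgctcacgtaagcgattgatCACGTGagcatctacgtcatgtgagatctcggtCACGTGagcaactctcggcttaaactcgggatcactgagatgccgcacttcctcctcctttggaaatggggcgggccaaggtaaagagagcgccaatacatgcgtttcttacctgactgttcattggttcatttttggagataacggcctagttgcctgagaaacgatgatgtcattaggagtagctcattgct
Naglu (chr11:101069844-101070093, plus strand): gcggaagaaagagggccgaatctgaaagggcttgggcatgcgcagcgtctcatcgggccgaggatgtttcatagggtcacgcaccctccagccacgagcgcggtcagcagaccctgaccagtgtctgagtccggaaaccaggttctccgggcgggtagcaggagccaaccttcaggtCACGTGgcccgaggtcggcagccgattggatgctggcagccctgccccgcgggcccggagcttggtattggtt
Mcoln1 (chr8:3500269-3500518, plus strand): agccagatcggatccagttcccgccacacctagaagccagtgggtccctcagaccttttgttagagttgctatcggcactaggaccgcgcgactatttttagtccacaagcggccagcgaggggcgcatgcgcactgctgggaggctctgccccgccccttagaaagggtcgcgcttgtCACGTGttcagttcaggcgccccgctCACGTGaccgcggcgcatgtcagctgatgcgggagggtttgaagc

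The other 7 genes with GTCACGTG or its reverse complement were not past the threshold of the test. A stretch of 30 bases of each is printed 5′ to 3′ on the gene's strand with the match in capitals, so that they can be set beside the sites of the called genes. Ctsd and Ctsa each hold a further match that is not shown. The sites of Ctsa and Lgmn lie inside the gene's coordinates, at a start other than the outermost one.
Glb1 (chr9:114401017-114401046, plus strand): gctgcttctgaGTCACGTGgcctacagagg
Arsa (chr15:89477424-89477453, minus strand): ttcaactcagtGTCACGTGttgtctgctcc
Ctsd (chr7:142387907-142387936, minus strand): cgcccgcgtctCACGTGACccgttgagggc
Ctsa (chr2:164833748-164833777, plus strand): atgagcaaactGTCACGTGatgcagatgct
Lamp1 (chr8:13159122-13159151, plus strand): atgccgactggCACGTGACcacatcacgtg
Lgmn (chr12:102439125-102439154, minus strand): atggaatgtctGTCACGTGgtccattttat
Sgsh (chr11:119355521-119355550, minus strand): ggcctgccgtgCACGTGACcgtggggagcg

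The files gave estimated counts per gene, with totals from 16984561 to 17625991 per library. A principal component analysis gave 54.5% of the variance to a component that separated the groups and 25.5% to a component on which static 3 stood apart. The correlation across genes was 0.993 between static 1 and static 2, and 0.956 and 0.959 between static 3 and these. In static 3, all 16 neutrophil markers and 10 of 11 monocyte markers lay above their mean in static 1 and static 2, by medians of 1.25 and 1.65 on the log2 scale. The 42 lysosomal genes lay higher there by a median of 0.14, with 27 above and 15 below. The 10 macrophage markers, Adgre1 and Csf1r among them, were all measured. Their summed levels were 8868 to 10639 CPM (the count scaled to a common library size) in stretched libraries and 11558 to 11761 CPM in static ones. The stretched sums thus lay below all static ones. Of the 10 log2 fold changes 3 were positive and 7 negative, with a median of -0.38. In edgeR Mertk was higher and C1qa lower in stretched libraries and 8 did not pass, while DESeq2 called 2 higher and 3 lower. In bulk RNA, a change in the number of cells of a type and a change in RNA per cell cannot be told apart.

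As a group the lysosomal genes lay mostly above their static levels. With edgeR's quasi-likelihood test and an adjusted p under 0.05, 7 of 42 were higher in stretched libraries, 1 was lower and 34 did not pass. That is 16.7% higher, against 6.55% of all tested genes, and 1 lower, against 5.38% of all tested genes. The log2 fold change was positive for 38 of the 42 genes (90.5%), against 49.8% of all tested genes. Its median was 0.36 over the lysosomal genes and -0.002 over all tested genes, and it ran from -0.64 for Ids to 1.60 for Gla. All 3 stretched libraries lay above all 3 static ones for 21 of the genes and below them for 2, while 19 overlapped. Those 23 are 54.8% of the genes, against 36.7% of all tested genes whose groups did not overlap. These counts, and the overlaps given below for single genes, refer to CPM and depend on its scaling. In the deposited FPKM values, scaled by library totals, Ctsa, Ctsk, Tpp1, Gaa, Arsa, Asah1, Ppt1, Lamp1 and Lamp2 of the 21 did overlap. The lysosomal genes together made up 4.63%, 4.98% and 4.53% of each stretched library, against 3.64%, 3.99% and 3.71% of each static one. When libraries were scaled by their totals alone, the median of all genes moved to -0.19 and that of the lysosomal genes to 0.16, with 29 positive, and the difference between the 2 medians stayed at 0.36.

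The number of calls depended on single libraries. With stretched 1, 2 or 3 left out, 2, 0 and 4 of the 42 were higher. With static 1, 2 or 3 left out, 0, 0 and 15 were. Over all genes tested in these fits 1.02%, 0.252%, 4.27%, 0.489%, 0% and 16.1% were higher in that order, against 35.7% of the 42 in the last. The edgeR fits that gave 0 were those without stretched 2, static 1 and static 2. There 12, 12 and 11 of the 42 had an unadjusted p under 0.05, and DESeq2 gave 9, 8 and 9. Of the 13099, 13078 and 13098 genes tested in these fits, 1454, 1532 and 1534 had a positive change with an unadjusted p under 0.05. DESeq2 called 725, 796 and 816 of all genes higher there. In the fit with all libraries 18 higher and 1 lower had an unadjusted p under 0.05, as did 31.7% of all tested genes. With all libraries DESeq2 called 13 higher and 1 lower, where it called 10.8% and 9.96% of all genes. The 6 further genes it called were Cd68, Ctsk, Ctss, Idua, Psap and Tpp1. The lower call, Ids, did not pass with any library left out other than static 3.

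**Figure D1:**
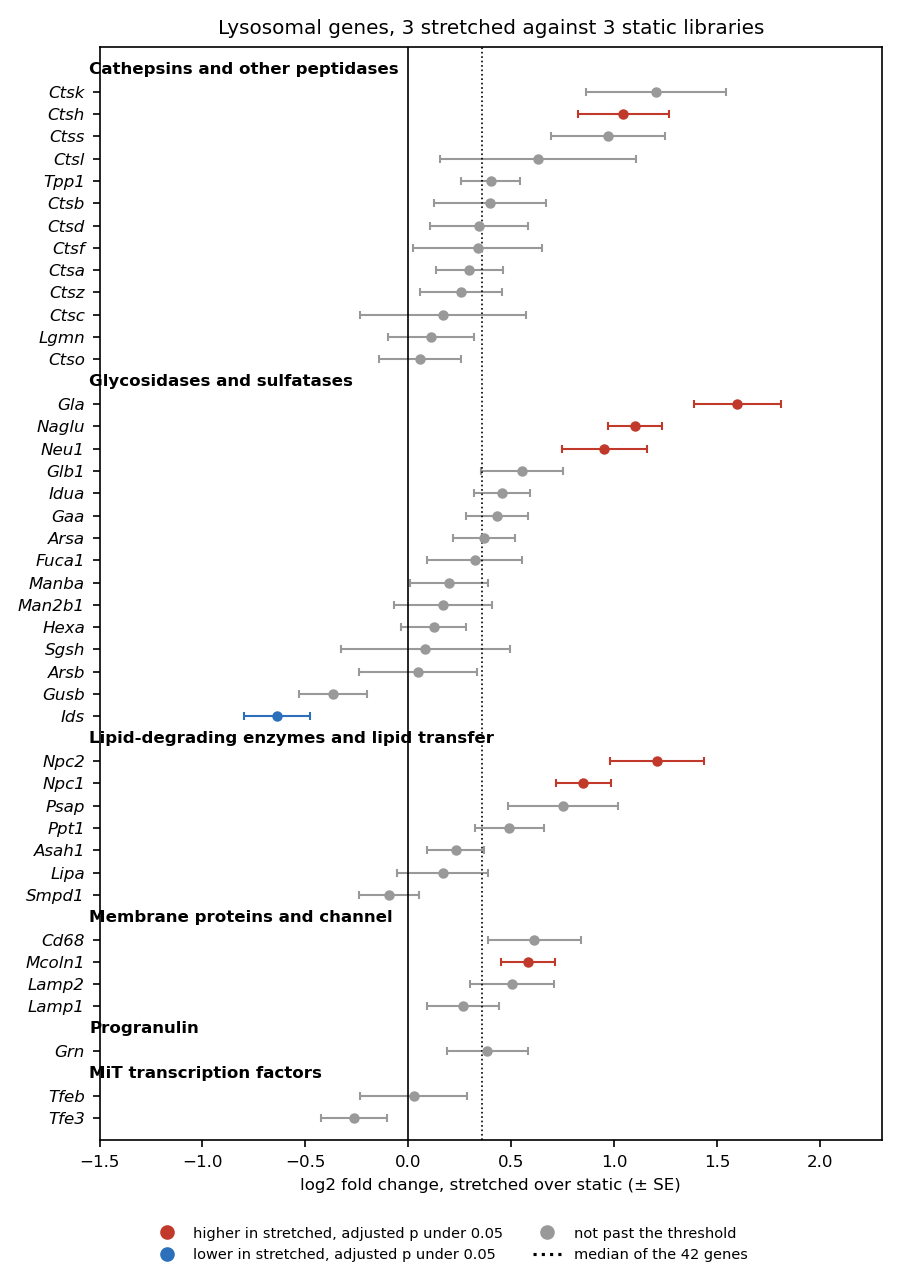
Log2 fold change of stretched over static libraries for the 42 lysosomal genes, grouped by role, with the standard error as a bar. Red points are higher and blue points lower at an adjusted p under 0.05 (edgeR), and grey points did not pass. Most points lie right of 0, from Ids at -0.64 to Gla at 1.60.

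The marker genes of other cells gave these levels beside the lysosomal ones. Summed neutrophil markers ran from 6543 to 11699.9 CPM in stretched libraries and 4648 to 15109.7 CPM in static ones, and 1 of 16 passed the test (Lcn2, higher). Summed monocyte markers ran from 4735 to 4994 CPM in stretched and 2482 to 5262 CPM in static libraries, and 1 of 11 passed (Hp, higher). Stromal markers summed to 5789.8 to 7879 CPM in stretched and 4404 to 5777 CPM in static libraries, with 0 of 8 past the threshold in edgeR, although all 8 were positive (median log2 fold change 0.42), Col3a1, Dcn and Sparc had an unadjusted p under 0.05 and DESeq2 called 3. Epithelial markers, 2 of which had enough counts to be tested, summed to 20.0 to 38.9 CPM in stretched and 10.5 to 14.2 CPM in static libraries, and Epcam was higher. Dendritic cell markers summed to 28.8 to 51.2 CPM in stretched and 11.3 to 34.8 CPM in static libraries, with Ccr7 higher of 7 tested. Lymphocyte markers summed to 51.7 to 65.7 CPM in stretched and 51.5 to 94.2 CPM in static libraries, with Ms4a1 lower of 8 tested. Mast cell and basophil markers summed to 99.0 to 132 CPM in stretched and 49.5 to 163 CPM in static libraries, with 0 of 7 past the threshold in edgeR and none by DESeq2 or with an unadjusted p under 0.05. No marker with a row in the table was at 0 in all libraries (1 epithelial marker, Sftpc, had none), and Krt8, Nkx2-1, Sftpb, Itgae, Cd209a and Tpsb2 were at 0 in some. The part of these cells in the lysosomal differences was not tested.

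Among the proteases, Ctsh alone passed the test, 1 of 13 (7.69%, near the 6.55% of all tested genes that were higher), and the median log2 fold change of the 13 was 0.34, with all 13 positive. Ctsh (gene identifier 13036, GRCm38.p6 chromosome 9, 90054267 to 90076095) encodes cathepsin H, a cysteine protease that trims peptides from their amino end. Its level was 519, 689 and 555 CPM in stretched 1 to 3, against 228, 264 and 362 CPM in static 1 to 3. The lowest stretched library lay well above the highest static one, static 3. The means were 587 ± 89.4 CPM in stretched and 285 ± 69.6 CPM in static libraries (SD, n = 3 each), and the log2 fold change was 1.04 ± 0.22 (SE, adjusted p = 0.0312, edgeR). It passed with static 3 left out (adjusted p = 0.00548) and not with stretched 1, 2 or 3 or static 1 or 2 left out (adjusted p = 0.0759, 0.119, 0.0614, 0.112 and 0.119 in that order).

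Ctsb and Ctsd, the protease genes with the highest CPM, did not pass. Ctsb, the gene of the cysteine protease cathepsin B, had 9705, 11247 and 7792 CPM in stretched libraries and 7478, 8274 and 6114 CPM in static ones. The groups overlapped, since stretched 3 lay below static 2 (log2 fold change 0.39 ± 0.27, SE, adjusted p = 0.355, edgeR). Ctsd, the gene of the aspartic protease cathepsin D, had 5106, 5731 and 4337 CPM in stretched libraries against 3774, 4599 and 3586 CPM in static ones. Here too stretched 3 lay below static 2 (0.34 ± 0.24, adjusted p = 0.355).

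Nearest to the threshold were Ctsk and Ctss. Ctsk encodes cathepsin K, a collagen-degrading protease best known from osteoclasts, and had 152, 128 and 322 CPM in stretched libraries against 85.7, 78.2 and 97.9 CPM in static ones. The groups did not overlap, and stretched 3 stood far above the other stretched libraries. The stromal marker Dcn was also highest there, at 99.1, 91.7 and 377 CPM in stretched libraries against 48.2, 31.5 and 61.4 CPM in static ones. Of the other stromal markers, Col1a1, Col3a1, Lum and Pdgfra were highest in stretched 3 too. Col1a2, Pdgfrb and Sparc were highest in stretched 1, and Pdgfrb was lowest in stretched 3. The part of stromal cells in the Ctsk value was not tested. The log2 fold change of Ctsk was 1.20 ± 0.34 (SE, adjusted p = 0.0589, edgeR). It was 0.65 without stretched 3 (adjusted p = 0.0653), and the gene passed with the replicate number as a block (adjusted p = 0.0478) and without static 3 (adjusted p = 0.0471). Ctss encodes cathepsin S, which cuts the invariant chain of MHC class II molecules. It had 4799, 7076 and 4639 CPM in stretched libraries against 2239, 2997 and 3204 CPM in static ones, with no overlap (0.97 ± 0.28, adjusted p = 0.0604, and 0.0315 without static 3).

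Ctsl showed the widest spread within a group. Its product, cathepsin L, is a cysteine endopeptidase. Its level was 2185, 3373 and 3899 CPM in stretched libraries and 2756, 2579 and 772 CPM in static ones. Static 3 lay far below all other libraries, and stretched 1 lay below static 1 and static 2 (0.63 ± 0.48, SE, adjusted p = 0.398, edgeR, and 0.24 without static 3). Ctsc, the gene of cathepsin C, which activates serine proteases of granules, was also uneven, at 1307, 2335 and 823 CPM in stretched libraries against 1527, 1550 and 892 CPM in static ones. Stretched 2 alone lay above every static library (0.17 ± 0.40, adjusted p = 0.809). It was -0.33 without stretched 2 and -0.051 without static 3. The other proteases, Ctsa, Ctsf, Ctso, Ctsz, Lgmn and Tpp1, had log2 fold changes from 0.06 (Ctso) to 0.40 (Tpp1), and those of Ctsa and Tpp1 alone had no overlap between groups. Ctso had -0.017 without stretched 1 and -0.14 without static 3, and Lgmn -0.051 without stretched 2.

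**Figure D2:**
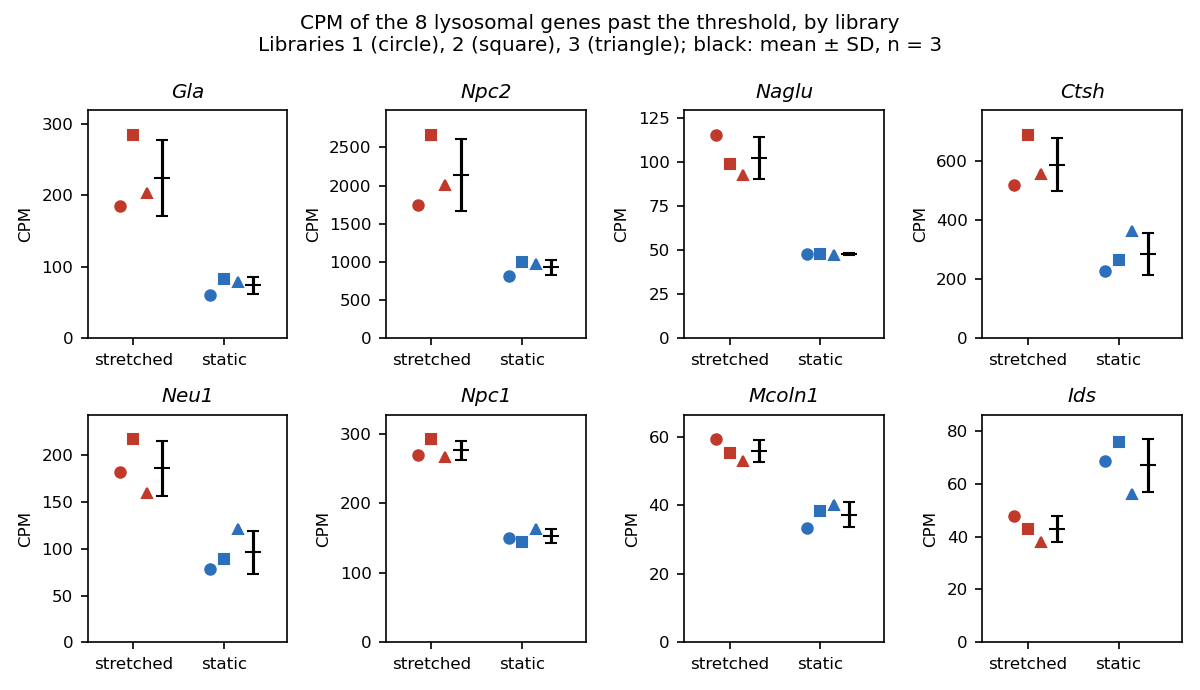
Level in CPM (vertical axis, from 0) of the 8 lysosomal genes past the threshold in each of the 3 stretched (red, left) and 3 static (blue, right) libraries, with the mean and SD in black. The groups do not overlap in any panel, and Ids is the one gene with stretched libraries below static ones.

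The glycosidases held 3 of the 7 higher genes, Gla, Naglu and Neu1, among 11 tested (median log2 fold change 0.43, 10 positive). That is 27.3% higher, against 6.55% of all tested genes. Gla (gene identifier 11605, chromosome X, 134588169 to 134601005) encodes alpha-galactosidase A, which removes terminal galactose from glycolipids and is deficient in Fabry disease. Its level was 185, 285 and 203 CPM in stretched 1 to 3, against 60.4, 82.8 and 79.1 CPM in static 1 to 3. Every stretched library lay above 2 times the highest static one, and stretched 2 was the highest. The means were 224 ± 53.1 CPM in stretched and 74.1 ± 12.0 CPM in static libraries (SD, n = 3 each), and the log2 fold change was 1.60 ± 0.21 (SE, adjusted p = 0.0145, edgeR). Gla passed without stretched 1, stretched 3 or static 3 (adjusted p = 0.0389, 0.0254 and 0.00549) and not without stretched 2, static 1 or static 2 (0.0539, 0.0521 and 0.0541).

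Naglu (gene identifier 27419, chromosome 11, 101070090 to 101077672) encodes the alpha-N-acetylglucosaminidase of heparan sulfate breakdown. It had the smallest adjusted p of the 42 genes, and its static libraries were nearly equal. The level was 115, 98.7 and 92.6 CPM in stretched libraries, against 47.8, 48.0 and 47.2 CPM in static ones. All stretched libraries lay far above all static ones. The log2 fold change was 1.10 ± 0.13 (SE, adjusted p = 0.0122, edgeR). It passed without stretched 1, stretched 3 or static 3 (adjusted p = 0.0442, 0.0182 and 0.00387), and not without stretched 2, static 1 or static 2 (0.0539, 0.0503 and 0.0553).

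Neu1 (gene identifier 18010, chromosome 17, 34931253 to 34937297) encodes a sialidase that removes terminal sialic acid and works in a complex with cathepsin A. Its level was 181, 217 and 159 CPM in stretched libraries, against 78.2, 88.5 and 121 CPM in static ones. Static 3 came nearest to the stretched libraries, without overlap. The log2 fold change was 0.95 ± 0.21 (SE, adjusted p = 0.0319, edgeR, and 0.0524 with the replicate number as a block). It passed with static 3 left out (adjusted p = 0.00535) and not with stretched 1, 2 or 3 or static 1 or 2 left out (0.0889, 0.125, 0.0525, 0.111 and 0.119). Ctsa, whose product stabilizes the NEU1 enzyme, had 983, 881 and 831 CPM in stretched libraries against 725, 768 and 703 CPM in static ones. Those groups did not overlap, but the difference did not pass (0.30 ± 0.16, adjusted p = 0.255).

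The most abundant glycosidase genes stayed near their static levels. Man2b1, the gene of lysosomal alpha-mannosidase, had 681, 646 and 394 CPM in stretched libraries and 463, 496 and 573 CPM in static ones. Stretched 3 was the lowest of all 6 libraries (0.17 ± 0.24, SE, adjusted p = 0.665, edgeR). Hexa encodes the alpha subunit of beta-hexosaminidase, which degrades GM2 ganglioside, and had 523, 506 and 424 CPM in stretched libraries against 432, 429 and 473 CPM in static ones. Stretched 3 again lay lowest (0.12 ± 0.16, adjusted p = 0.629). Gusb, the gene of beta-glucuronidase, was the one glycosidase with a negative value, at 274, 203 and 211 CPM in stretched libraries and 316, 291 and 280 CPM in static ones. All stretched libraries lay below all static ones, and the difference did not pass (-0.37 ± 0.17, adjusted p = 0.176). The remaining glycosidase genes, Idua (0.46, adjusted p = 0.0679), Gaa (0.43, adjusted p = 0.0977), Glb1, Fuca1 and Manba, had log2 fold changes of 0.20 to 0.55 and did not pass. Idua and Gaa had no overlap between groups and passed without static 3 (adjusted p = 0.0428 and 0.0441), as did Fuca1 (0.00943).

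The sulfatases included the 1 lower gene, Ids, among 4 tested, where 5.38% of all tested genes were lower. Ids (gene identifier 15931, chromosome X, 70343069 to 70385834) encodes iduronate-2-sulfatase, which acts on heparan and dermatan sulfate and is deficient in Hunter syndrome. Its level was 47.9, 42.9 and 38.0 CPM in stretched libraries, against 68.6, 75.9 and 56.3 CPM in static ones. All stretched libraries lay below static 3, the lowest static one. The log2 fold change was -0.64 ± 0.16 (SE, adjusted p = 0.044, edgeR). It passed with static 3 left out (adjusted p = 0.00928) and not with stretched 1, 2 or 3 or static 1 or 2 left out (0.0911, 0.13, 0.0819, 0.14 and 0.161). Arsa, Arsb and Sgsh had log2 fold changes of 0.37, 0.05 and 0.08 (adjusted p = 0.139, 0.929 and 0.912), and those of Arsb and Sgsh were -0.38 and -0.41 without stretched 3. Sgsh, the heparan sulfatase gene with the lowest mean FPKM of the 42, was at -0.085 without static 1 and -0.093 without static 2, and Arsb was at -0.0087 without static 2 and -0.030 with the replicate block. Naglu, Sgsh, Ids, Idua and Gusb all act on heparan sulfate in sequence with other enzymes. Within these 5 genes 1 was higher, 1 was lower and 3 did not pass, where 6.55% of all tested genes were higher and 5.38% lower. So few genes allow no reading of the pathway.

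Of the 7 genes of lipid breakdown and lipid transfer, Npc2 and Npc1 were higher and 5 did not pass (median log2 fold change 0.49, 6 positive). That is 28.6% higher, against 6.55% of all tested genes. NPC2 in the lumen and NPC1 in the membrane hand cholesterol out of the lysosome, and loss of either causes Niemann-Pick disease type C. Npc2 (gene identifier 67963, chromosome 12, 84754559 to 84773112) had 1752, 2667 and 2014 CPM in stretched libraries, against 819, 994 and 975 CPM in static ones. The groups lay far apart, with stretched 2 highest. The means were 2144 ± 472 CPM in stretched and 929 ± 96.3 CPM in static libraries (SD, n = 3 each), and the log2 fold change was 1.21 ± 0.23 (SE, adjusted p = 0.0241, edgeR). Npc2 passed without stretched 3 or static 3 (adjusted p = 0.0441 and 0.0124) and not without stretched 1, stretched 2, static 1 or static 2 (0.0624, 0.0864, 0.1 and 0.0948). Npc1 (chromosome 18, 12189694 to 12236506) had 269, 292 and 266 CPM in stretched libraries, against 151, 145 and 164 CPM in static ones. The spread within each group was small beside the gap between them, and the log2 fold change was 0.85 ± 0.13 (adjusted p = 0.0179). Npc1 passed without stretched 3 or static 3 (0.0316 and 0.00489) and not without stretched 1, stretched 2, static 1 or static 2 (0.0624, 0.0765, 0.0758 and 0.0865). Exons of Npc1 overlap those of Rmc1 on the opposite strand, and the sources used here do not say whether the counting used strand.

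Psap, the most abundant gene of lipid breakdown, encodes prosaposin, the precursor of the saposins that present sphingolipids to their hydrolases. Its level was 8313, 10346 and 7994 CPM in stretched libraries, against 4400, 5062 and 6386 CPM in static ones. The groups did not overlap, with static 3 nearest to the stretched libraries. The difference did not pass (0.75 ± 0.27, SE, adjusted p = 0.101, edgeR), and it did without static 3 (adjusted p = 0.0323). Ppt1, the gene of a palmitoyl-protein thioesterase, had a log2 fold change of 0.49 (adjusted p = 0.0941, and 0.011 without static 3), and Asah1, the gene of acid ceramidase, 0.23 (adjusted p = 0.299), both without overlap. Lipa, the gene of lysosomal acid lipase, was at 0.17 (adjusted p = 0.641) and Smpd1, the gene of acid sphingomyelinase, at -0.09 (adjusted p = 0.703), both with overlap. The last was at 0.0010 without stretched 2.

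By CPM, all 4 genes of membrane proteins had their stretched libraries above all static ones, as did 18.5% of all tested genes. By FPKM, Lamp1 and Lamp2 overlapped, since static 3 (687 and 290 FPKM) lay above stretched 3 (670 and 267 FPKM). Mcoln1 passed the test and the other 3 did not. Mcoln1 (gene identifier 94178, chromosome 8, 3500519 to 3515232) encodes mucolipin 1, a cation channel that releases calcium from the lysosome. Its level was 59.3, 55.3 and 52.8 CPM in stretched libraries, against 33.3, 38.3 and 40.2 CPM in static ones. The log2 fold change was 0.58 ± 0.13 (SE, adjusted p = 0.0343, edgeR). It had the highest adjusted p of the 7 higher genes and did not pass with library totals alone (0.39, adjusted p = 0.116) or with the replicate number as a block (adjusted p = 0.0642). Mcoln1 passed without static 3 (adjusted p = 0.0115) and not without stretched 1, 2 or 3 or static 1 or 2 (0.116, 0.12, 0.0639, 0.14 and 0.124).

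Lamp1 and Lamp2 encode the main glycoproteins of the lysosomal membrane. Lamp1 had 1581, 1624 and 1390 CPM in stretched libraries, against 1264, 1264 and 1296 CPM in static ones. The static libraries were almost equal, and the difference did not pass (0.26 ± 0.18, SE, adjusted p = 0.337, edgeR). Cd68 encodes macrosialin, a LAMP relative typical of macrophages, and had 1417, 1391 and 1358 CPM in stretched libraries against 1016, 1056 and 655 CPM in static ones. The stretched libraries were nearly equal and static 3 was the lowest (0.61 ± 0.23, adjusted p = 0.112). Lamp2 was at 0.50 ± 0.21 (adjusted p = 0.14). Grn encodes progranulin, a secreted protein whose granulin fragments form in the lysosome. It had 2207, 2507 and 2115 CPM in stretched libraries and 1633, 1962 and 1638 CPM in static ones, with no overlap (0.38 ± 0.20, adjusted p = 0.223).

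Neither transcription factor gene passed the test. Tfeb had 22.7, 23.1 and 25.6 CPM in stretched libraries, against 17.4, 18.8 and 34.1 CPM in static ones. Static 3 lay above every stretched library and the other static libraries lay below them, so the groups overlapped (0.03 ± 0.26, SE, adjusted p = 0.959, edgeR). Its log2 fold change was 0.39 without static 3 (adjusted p = 0.0512), and it was negative without stretched 3, static 1 or static 2 (-0.064, -0.15 and -0.11) and with library totals alone (-0.17). Tfe3 had 174, 201 and 143 CPM in stretched libraries, against 196, 218 and 208 CPM in static ones. Stretched 2 lay within the static range and the other stretched libraries below it (-0.26 ± 0.16, adjusted p = 0.3, and -0.47 with library totals alone, adjusted p = 0.0546). Both values are levels of RNA and say nothing of the phosphorylation or location of the proteins.

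The E-box shown above was set beside the changes. The median log2 fold change was 0.36 over the 10 genes with GTCACGTG in a window and 0.33 over the 28 without it. For the core CACGTG the medians were 0.37 with it and 0.26 without it. These are descriptions with no test. Of the 5 higher genes with a window, Gla, Naglu and Mcoln1 held it, and Neu1 and Npc2 held neither it nor CACGTG. Of the other 33 genes with a window, 7 held it. In Lgmn and Sgsh, which hold it, the log2 fold changes were 0.11 and 0.08. These letters are a match to a sequence and not a measured site.

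**Figure D3:**
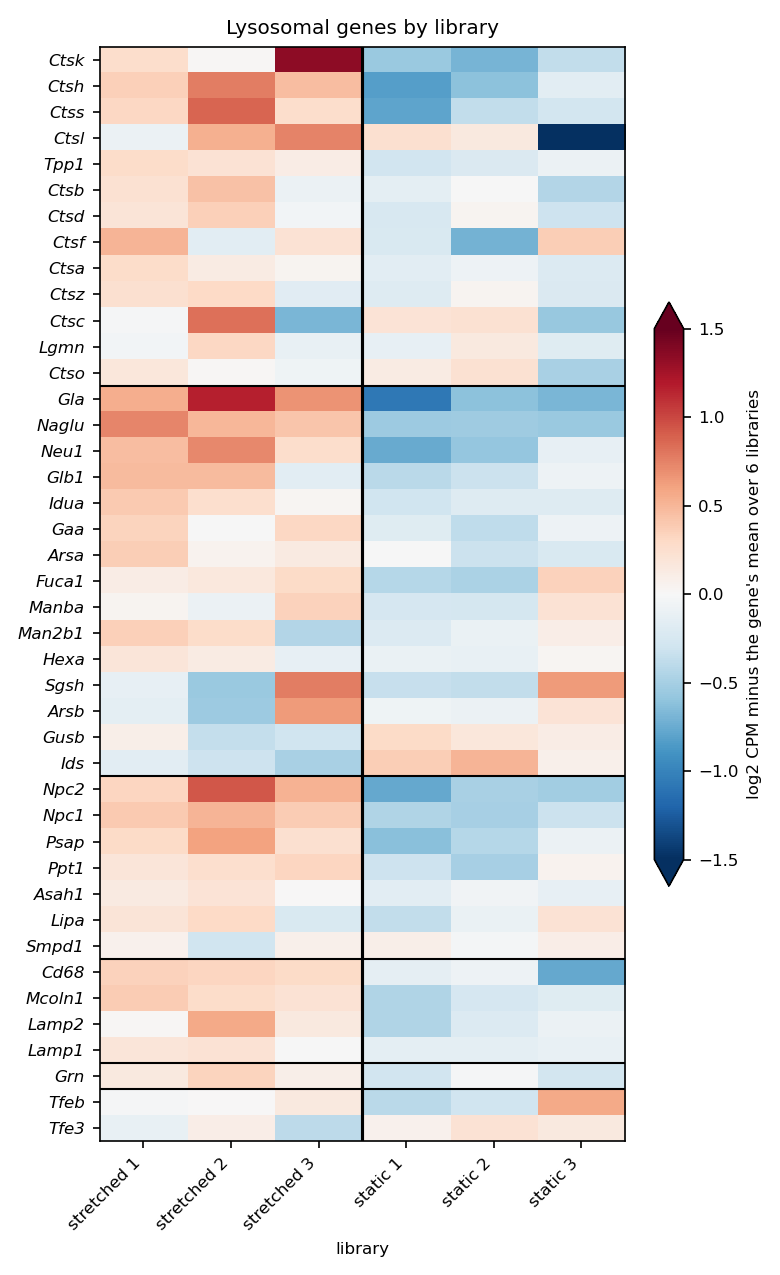
Log2 CPM of each of the 42 lysosomal genes minus its mean over the 6 libraries, with stretched libraries left of the line and static ones right of it. Most genes are above their mean in the stretched libraries, and the column of static 3 differs from those of static 1 and static 2, with Ctsl and Cd68 low and Tfeb and Fuca1 high.

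Levels between genes were compared per length, with the FPKM values the authors deposited. Their mean over the 6 libraries ran from 2.61 FPKM for Sgsh to 4627 FPKM for Ctsb, a ratio of 1771. After Ctsb came Ctss at 3571, Psap at 2805, Ctsd at 2481, Ctsl at 1689 and Cd68 at 1033 FPKM. The 5 highest genes held 64.4% to 69.6% of the summed FPKM of the lysosomal genes in every library, and the 10 highest held 84.1% to 87.0%. None of these 10 passed the test in edgeR, against 11.9% of all tested genes in either direction. For so few genes this is near that share. Cd68, Ctss and Psap had an unadjusted p under 0.05 in edgeR and were called by DESeq2. The called genes lay in the middle and lower part of that range, from Npc2 at 479 FPKM to Ids at 11.9 FPKM. Summed over the proteases, the level was 16160, 18140 and 16260 FPKM in stretched libraries and 13180, 14750 and 12220 FPKM in static ones, without overlap. Summed over the glycosidases and sulfatases it was 977, 837 and 823 FPKM in stretched libraries and 803, 790 and 938 FPKM in static ones, and static 3 lay inside the stretched range. The summed level of the lipid genes was 4262, 4720.0 and 4361 FPKM in stretched libraries and 2579, 2890.0 and 3715 FPKM in static ones, and that of the membrane proteins was 2268, 2103 and 2206 FPKM in stretched and 1836, 1876 and 1656 FPKM in static libraries, both without overlap. Tfeb and Tfe3 together went the other way, at 67.3, 68.2 and 62.0 FPKM in stretched libraries and 81.0, 87.2 and 96.9 FPKM in static ones. FPKM is scaled by the library total, on which the median of all genes was -0.19, and the CPM of each of these genes overlapped between groups. Tfe3 averaged 65.5 FPKM and Tfeb 11.6 FPKM.

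**Figure D4:**
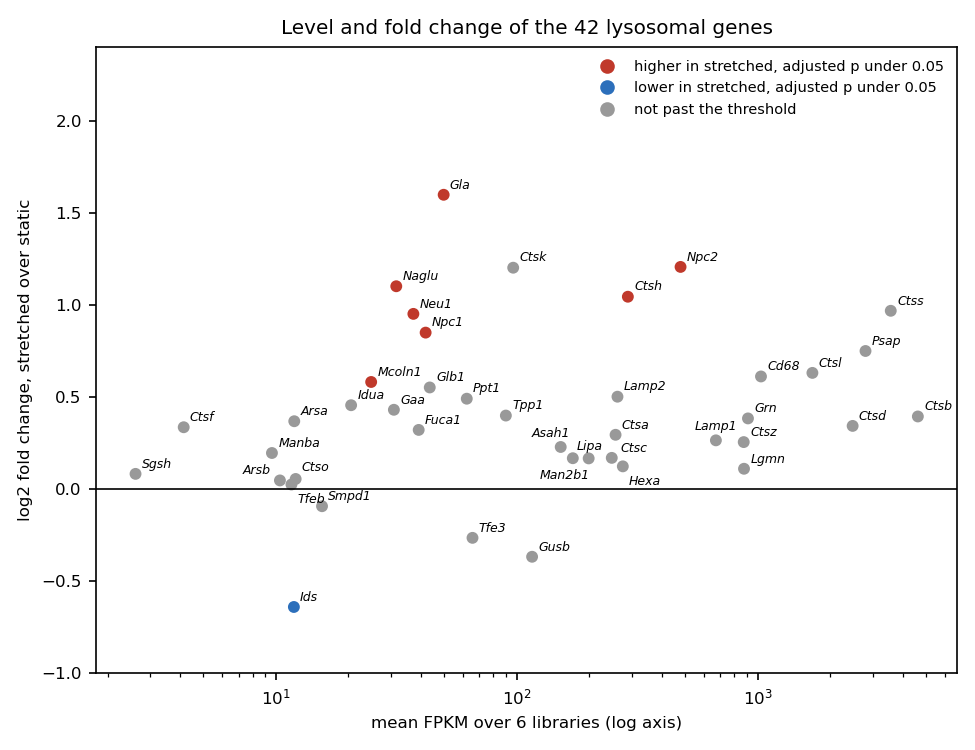
Mean FPKM over 6 libraries (horizontal, log axis) against the log2 fold change of stretched over static libraries (vertical) for the 42 lysosomal genes. Red and blue points passed the test, and the called genes lie between Ids at 11.9 FPKM and Npc2 at 479 FPKM, below the most abundant genes.

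The transcript table holds 104 rows of these genes, of which 91 were tested. None passed in edgeR, which called 1 of all 29604 transcripts tested (0.00338%). With an unadjusted p under 0.05 there were 23 higher and 2 lower, against 15.4% of all transcripts in either direction, and DESeq2 called 18 higher and 1 lower, against 9.25%. The 19 belong to Ctsh, Ctsk, Ctss, Tpp1, Gla, Gaa, Naglu, Neu1, Psap, Npc1, Npc2, Lamp1, Mcoln1 and Grn, and to Ids, the lower one. The division of reads among transcripts of a gene is an estimate, so these values are uncertain. Ctsk had a predicted transcript (XM_006500974.3) at 30.2, 56.6 and 23.1 CPM in stretched libraries against 1.20, 2.15 and 3.77 CPM in static ones. The groups lay far apart, and the log2 fold change of 3.95 ± 0.57 did not pass in edgeR (SE, adjusted p = 0.101), while DESeq2 called it (adjusted p = 2.51e-09). It took 19.8%, 45.1% and 7.12% of the gene's counts in stretched libraries and 1.34%, 2.73% and 3.80% in static ones. The main transcript of Ctsk (NM_007802.4) had 122, 68.9 and 302 CPM in stretched libraries against 86.2, 76.6 and 95.4 CPM in static ones, with overlap (0.93 ± 0.52, adjusted p = 0.487).

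The main transcript of Naglu (NM_013792.2) took 94.3%, 96.8% and 92.2% of the gene's counts in stretched libraries and 91.8%, 95.4% and 89.2% in static ones, and its log2 fold change was 1.11 ± 0.13 (SE, adjusted p = 0.0927, edgeR), the smallest adjusted p of these transcripts. That of Npc1 (NM_008720.2) was at 0.92 ± 0.13 (adjusted p = 0.101) and its predicted transcript (XM_017317849.1) at 0.24 ± 0.25 (adjusted p = 0.758). Both transcripts of Ctsh had like values, 1.02 ± 0.22 and 1.14 ± 0.49 (adjusted p = 0.115 and 0.353), and those of Ids were at -0.39 ± 0.28 and -0.70 ± 0.19 (adjusted p = 0.609 and 0.157). Lamp2 makes isoforms that differ in their tails. Its transcript NM_001017959.2 took 47.8%, 46.5% and 31.1% of the gene's counts in stretched libraries and 30.4%, 31.5% and 50.5% in static ones. The ranges overlapped because stretched 3 was low and static 3 high (0.61 ± 0.37, adjusted p = 0.521). NM_010685.4, the other abundant one, was at 0.29 ± 0.22 (adjusted p = 0.619), the rare XR_001782739.1 at 1.15 ± 0.42 (adjusted p = 0.272) and NM_001290485.1 at 0.80 ± 0.66 (adjusted p = 0.665).

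Lysosomal genes outside the 42 were taken as 6 lists with 118 symbols, of which 117 had a row and 111 were tested. Of these 16 were higher (14.4%, against 6.55% of all tested genes) and 2 lower (against 5.38%), with 1, 0 and 10 higher when stretched 1, 2 or 3 was left out and 1, 0 and 33 when static 1, 2 or 3 was. Without static 3, 16.1% of all genes were higher too. In the fits without stretched 2 and static 2 that gave 0 in edgeR, 31 and 27 had a positive change with an unadjusted p under 0.05. DESeq2 called 17 in each. Of all 13099 and 13098 genes tested in these fits, 1454 and 1534 had a positive change with an unadjusted p under 0.05. DESeq2 called 725 and 816 of all genes higher. DESeq2 called 28 higher with all libraries, and library totals alone gave 9 in edgeR. Other hydrolases had 7 higher of 30. Hyal1, the gene of a hyaluronidase, had 17.5, 24.9 and 33.9 CPM in stretched libraries against 4.96, 4.81 and 2.24 CPM in static ones. Its groups lay far apart (2.67 ± 0.37, SE, adjusted p = 0.0151, edgeR; not past it without stretched 2 or static 2, at 0.0665 and 0.0541). Scpep1, the gene of a serine carboxypeptidase, was at 1.10 ± 0.20 (adjusted p = 0.0225) and the ribonuclease gene Rnaset2b at 0.71 ± 0.14 (adjusted p = 0.0262, and 0.0547 with library totals alone), a near-identical copy of Rnaset2a between which reads may have been split. Scpep1 passed without stretched 3 or static 3, and Rnaset2b without static 3, but not with the other libraries left out.

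The proton pump that acidifies the lysosome had 4 higher genes and 1 lower of 18. That is 22.2% higher, against 6.55% of all tested genes, and 1 lower, against 5.38% of all tested genes. Of 8 tested subunits of V1, the part in the cytosol that splits ATP, 4 were higher and 4 did not pass. Of 8 tested subunits of V0, the part in the membrane, 1 was lower and 7 did not pass. Atp6v1a, the catalytic subunit gene, had 407, 464 and 441 CPM in stretched libraries against 245, 262 and 256 CPM in static ones. The spread within each group was small beside the gap (0.78 ± 0.14, SE, adjusted p = 0.0223, edgeR). Atp6v1d was at 0.72 ± 0.13 (adjusted p = 0.0235), Atp6v1g1 at 0.53 ± 0.13 (adjusted p = 0.0436, and 0.07 with the replicate block) and Atp6v1e1 at 0.53 ± 0.14 (adjusted p = 0.0463, and 0.0595 with it). Atp6v0a1, 1 of several forms of the a subunit, had 93.8, 88.5 and 84.6 CPM in stretched libraries against 206, 198 and 139 CPM in static ones. All stretched libraries lay below static 3, the lowest static one (-1.03 ± 0.18, adjusted p = 0.0204). Atp6v1a and Atp6v0a1 passed without stretched 3 or static 3, and the other 3 without static 3, but not with any other library left out. The calls of Atp6v1e1 and Atp6v1g1 also ended without the count filter (adjusted p = 0.0655 and 0.0607) and with library totals alone (0.107 and 0.136). The difference between V1 and V0 was not tested.

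The remaining lists gave fewer calls. Of the other membrane proteins 4.17% were higher and of the nutrient sensing genes 5.26%, both under the 6.55% of all tested genes. For tagging and sorting it was 7.69%, near that share, and for the 7 tested inhibitors 28.6%. Of all tested genes 5.38% were lower. Among 24 other membrane proteins, Clcn7, the gene of a lysosomal chloride-proton exchanger, was higher at 421, 512 and 252 CPM in stretched libraries against 136, 177 and 189 CPM in static ones. Stretched 3 was the lowest stretched library and still lay above static 3 (1.24 ± 0.28, SE, adjusted p = 0.034, edgeR, and 0.0553 with the replicate block). Among 13 genes of mannose 6-phosphate tagging and sorting, Gnptab and Gnptg, which encode subunits of the same tagging enzyme, passed in opposite directions. Gnptab had 164, 179 and 145 CPM in stretched libraries against 104, 112 and 100.2 CPM in static ones (0.63 ± 0.14, adjusted p = 0.0318, and 0.0506 with library totals alone). Gnptg had 15.7, 12.3 and 14.1 CPM in stretched libraries against 22.8, 21.8 and 20.1 CPM in static ones (-0.62 ± 0.15, adjusted p = 0.0422, and 0.0626 with the replicate block). Neither pair of groups overlapped. Of 7 tested genes listed as cathepsin inhibitors, Cst7, the gene of cystatin F, was at 0.86 ± 0.15 (adjusted p = 0.0215). Serpinb9 was at 1.24 ± 0.27 (adjusted p = 0.0321). Its product inhibits granzyme B, so that list does not hold inhibitors of cathepsins alone. Of 19 tested genes of nutrient sensing and TFEB control, Fnip2, whose product binds folliculin, was higher at 1.30 ± 0.23 (adjusted p = 0.0216). Clcn7, Gnptab, Cst7 and Fnip2 passed without stretched 3 or static 3, and Gnptg and Serpinb9 without static 3, but not with any other library left out.

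**Figure D5:**
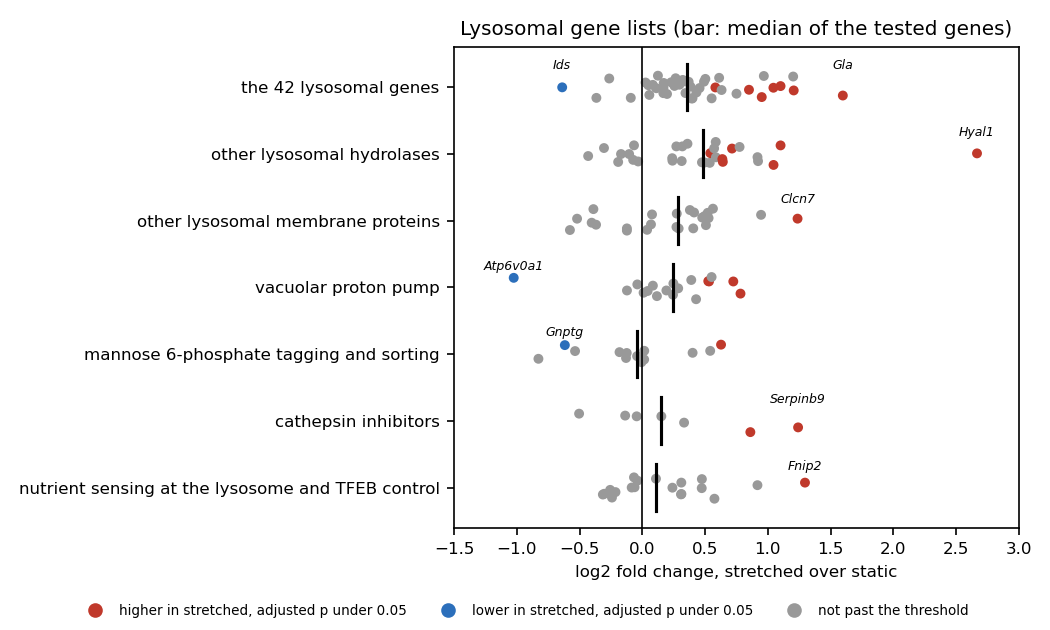
Log2 fold change of stretched over static libraries for each tested gene of the 42 lysosomal genes and of 6 lists of other lysosomal genes (rows), with the list's median as a bar. Red and blue points passed the test in either direction. The medians of the hydrolase rows lie right of 0 and that of mannose 6-phosphate tagging and sorting near it.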

How the data were processed

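The deposited gene and transcript tables hold an estimated count per feature and library, not normalised, per the file headers. They also hold a normalised value with no named unit, which equals the count over an effective length and the library total and was read from the values as FPKM made by the authors. The submitters' processing notes name the builds GRCm38 and mm10. The aligner, the counter and the strandedness, and any filter on reads, were not given in the sources used here. Gene coordinates and promoter sequences come from RefSeq on GRCm38.p6.

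Estimated counts were rounded. Genes kept by filterByExpr (minimum count 10) were tested with the quasi-likelihood test of edgeR 4.0.16 (R 4.3.3, TMM factors, 6 libraries), with Benjamini-Hochberg adjustment over all 12892 genes and a threshold of 0.05. CPM values use the TMM-scaled totals, and SE was derived from the F statistic. Alternatives were DESeq2 1.42.0, its size factors, library totals alone, no filter, the replicate block and each library left out.

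The 42 genes, the lists, the tests and the rule for naming genes were chosen with earlier results of these data known. The rule gives in full each of the 42 past the threshold, Tfeb, Tfe3 and the 2 most abundant genes of each role, and up to 4 called genes of each other list. A gene named by this rule is not reported here. Ctsl, Ctsc, Gusb and Ctsa were added after their values were seen.

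The titles share replicate numbers. Same-numbered libraries deviated together from their group means (r = 0.29, 0.176 and 0.163). Pairs with different numbers ran from r = -0.242 to 0.115. This is at most a weak hint from the data, not the labels, that the numbers pair the libraries. The fit behind every count and adjusted p has no replicate block unless the text says so, and the blocked value is given where it changes a call.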

Additional observations from a re-analysis of the deposited data

How the results depend on the processing

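With DESeq2, the calls were 1398 higher and 1284 lower over all genes, 13 higher over the 42 lysosomal genes, 28 higher over the other lysosomal genes, and 18 higher and 1 lower over transcripts. With library totals alone they were 556 higher and 1297 lower over all genes and 9 higher over the other lysosomal genes, and the median of the 42 was 0.16, as it was from the deposited FPKM. With the replicate block they were 408 lower over all genes and 1 lower over the other lysosomal genes. The block ended the calls of Neu1 and Mcoln1, gave that of Ctsk, and changed no other call of the 42. With 1 library left out the counts ran from 0 to 2095 higher and 0 to 2011 lower over all genes, 0 to 15 higher and 0 to 1 lower over the 42, and 0 to 33 higher and 0 to 9 lower over the other lysosomal genes. Signs turned with library totals alone for Ctsc (-0.058), Ctso (-0.13), Lgmn (-0.091), Hexa (-0.074), Sgsh (-0.088), Arsb (-0.12), Man2b1 (-0.040), Lipa (-0.042) and Tfeb (-0.17), where the median of all genes was -0.19, and with the block for Arsb (-0.030). With 1 library left out, log2 fold changes ran from -0.33 to 0.43 for Ctsc, -0.14 to 0.19 for Ctso, -0.051 to 0.22 for Lgmn, -0.41 to 0.50 for Sgsh, -0.38 to 0.26 for Arsb, -0.19 to 0.0010 for Smpd1 and -0.15 to 0.39 for Tfeb. The cause was not tested. None of the 7 higher genes and Ids changed direction under any alternative run. Scaling by DESeq2's size factors and dropping the filter changed no call of the 42. Among the 18 calls of the other lysosomal genes, dropping the filter ended 4, Manbal, Atp6v1e1 and Atp6v1g1 among them, and library totals alone ended 7, with Rnaset2a, Rnaset2b and Gnptab added to these.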
